A study of Homo sapiens with 6 samples.

Results

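The genes described here encode 53 potassium channel subunits, a list of named genes read from a gene table of 20668 genes. A gene was a member by its symbol alone, though the list was chosen with earlier results of these data known. The table held 40 of the 53, and the other 13 were absent from it. RNA came from SH-SY5Y, a human neuroblastoma line of sympathoadrenal origin that is widely used as a neuronal model. There were 3 DNAJC12 knockout (KO) libraries and 3 wild-type (WT) libraries, all from untreated cells. The knockout was made with CRISPR/Cas9, and the series description sets it in a study of cell invasion. DNAJC12 is a J-domain protein that assists the folding of aromatic amino acid hydroxylases. The labels do not say whether replicates were separate cultures, or how many knockout clones were used, so a difference between clones and one between genotypes cannot be told apart. Each p-value therefore reflects only how far these libraries spread, which may be technical.

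Potassium channels let potassium ions leave the cell, which holds the membrane at a negative potential and ends action potentials. Voltage-gated channels open on depolarisation. Calcium-activated channels, with their sodium-activated relatives, open when those ions accumulate inside the cell. Inward rectifiers (Kir) and tandem-pore (K2P) channels set the resting potential. Pore-forming subunits assemble around a shared ion path, K2P subunits carry a pair of pore segments in each chain, and modifier and auxiliary subunits change the gating or trafficking of channels that others form.

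The selectivity filter is the feature that pore-forming and modifier members share in sequence, and it is shown for members that the results below turn on, from each of the 4 classes. The stretches are coding sequence of GENCODE 29 transcripts on GRCh38, each 45 bases long, with the filter's glycine-tyrosine-glycine or glycine-phenylalanine-glycine codons in capitals.
KCNG1 (voltage-gated modifier, chr20:51004282-51004326, minus strand): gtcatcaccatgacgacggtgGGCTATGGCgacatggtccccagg
KCNH2 (voltage-gated, chr7:150951494-150951538, minus strand): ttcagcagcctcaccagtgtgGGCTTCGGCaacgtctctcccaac
KCNMA1 (calcium-activated, chr10:77110221-77110265, minus strand): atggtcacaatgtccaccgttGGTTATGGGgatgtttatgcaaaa
KCNJ8 (inward rectifier, chr12:21766551-21766595, minus strand): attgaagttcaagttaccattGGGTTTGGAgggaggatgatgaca
KCNJ11 (inward rectifier, chr11:17387675-17387719, minus strand): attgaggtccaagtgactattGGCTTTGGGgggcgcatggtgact
KCNK3 (K2P, filter of the first pore segment, chr2:26693137-26693158 joined to chr2:26727667-26727689, plus strand): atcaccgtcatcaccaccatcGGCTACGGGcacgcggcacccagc
KCNK3 (K2P, filter of the second pore segment, chr2:26727963-26728007, plus strand): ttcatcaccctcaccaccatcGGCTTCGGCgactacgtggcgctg
The Kir pair KCNJ8 and KCNJ11 carry phenylalanine in the filter, as KCNH2 does, while KCNK3 carries 1 filter of each kind.

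Library totals ran from 19845788 to 21869659 estimated counts in KO and from 19321842 to 20071795 in WT. Levels are given as CPM, counts scaled to library size after TMM normalization, where 1 count is worth 0.0466 to 0.0511 CPM. Changes are log2 fold changes of KO against WT ± SE. The test was edgeR's quasi-likelihood test over 16403 genes, with p adjusted by Benjamini-Hochberg and 0.05 as the threshold. DNAJC12 RNA stood at 4.85 to 5.91 CPM in KO libraries, against 20.0 to 23.0 CPM in WT libraries. All 11 sympathoadrenal markers on the list were above 1 CPM in each of the 6 libraries, with sums of 4305 to 4387 CPM in KO and 4293 to 4433 CPM in WT. The 6 fibroblast markers were also all above 1 CPM and summed to 350 to 376 CPM in KO and 307 to 329 CPM in WT. Glial markers (4 of 6 in the table, with SOX10 and FABP7 absent) summed to 7.37 to 8.35 CPM in KO and 7.72 to 9.68 CPM in WT. Of the 4 epithelial markers, KRT5 and KRT14 were absent, and the other two summed to 1.45 to 1.63 CPM in KO and 0.775 to 1.83 CPM in WT. The part of these differences in the results was not tested. In bulk RNA, fewer cells of a type and less RNA per cell cannot be told apart.

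Potassium channel genes moved in both directions. Rises with at least 10 counts in each of the 6 libraries had their smallest adjusted p-values in KCNMA1, KCNK3 and KCNJ11. These genes encode a large-conductance channel, an acid-sensitive leak channel and a Kir pore. The sodium-activated channel gene KCNT1 and the fast voltage-gated subunit gene KCNC1 rose as well. Both needed their KO libraries to pass the filter on low counts. Among the falls the smallest adjusted p-values were those of the Kir gene KCNJ8, the modifier gene KCNG1 and the beta subunit gene KCNAB1. Of the 40 members in the table, 34 passed the filter on low counts, and of these 14 rose, 10 fell and 10 did not pass the test. Over all genes 26 percent passed, 14.5 percent higher and 11.5 percent lower. At least 2-fold changes past the threshold were seen in 18 members, 11 higher and 7 lower, and in 9.24 percent of all genes. KO and WT libraries did not overlap in 26 members, 16 higher and 10 lower, and in 41.7 percent of all genes. Scaled by library size alone, 2055 genes were higher and 2438 lower, where TMM gave 2383 and 1887. The members' counts were 14 higher and 10 lower under both scalings. In 7 of the 24 members that changed, every library of the lower group held fewer than 10 counts, namely KCNA3, KCNJ12, KCNK9, KCNQ3 and KCNT1, which rose, and KCNG4 and KCNH5, which fell. These passed the filter through 1 group only, so they had to differ. Neither their adjusted p-values nor the count over the members tested is support. Among the 27 members with a library of at least 10 counts in both groups, 9 rose and 8 fell. These rises include KCNC1, at 13, 4 and 3 counts in WT libraries, and KCNH6, at 16, 11 and 4. As the filter asks for 3 libraries with enough counts, both needed their KO libraries to pass it. Their adjusted p-values, and their part in these counts, are no support either. The median change was 0.27 over the 34 members and 9.19e-06 over all genes, and the median size of change, without its sign, was 1.51 and 0.22 on the log2 scale. With KCNA3, which had 0 counts in WT, placed at its lower bound both medians of the members stay as they are. Both medians include the members that needed 1 group to pass the filter, which had to differ. These medians are therefore no support for larger changes in the members.

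**Figure D1:**
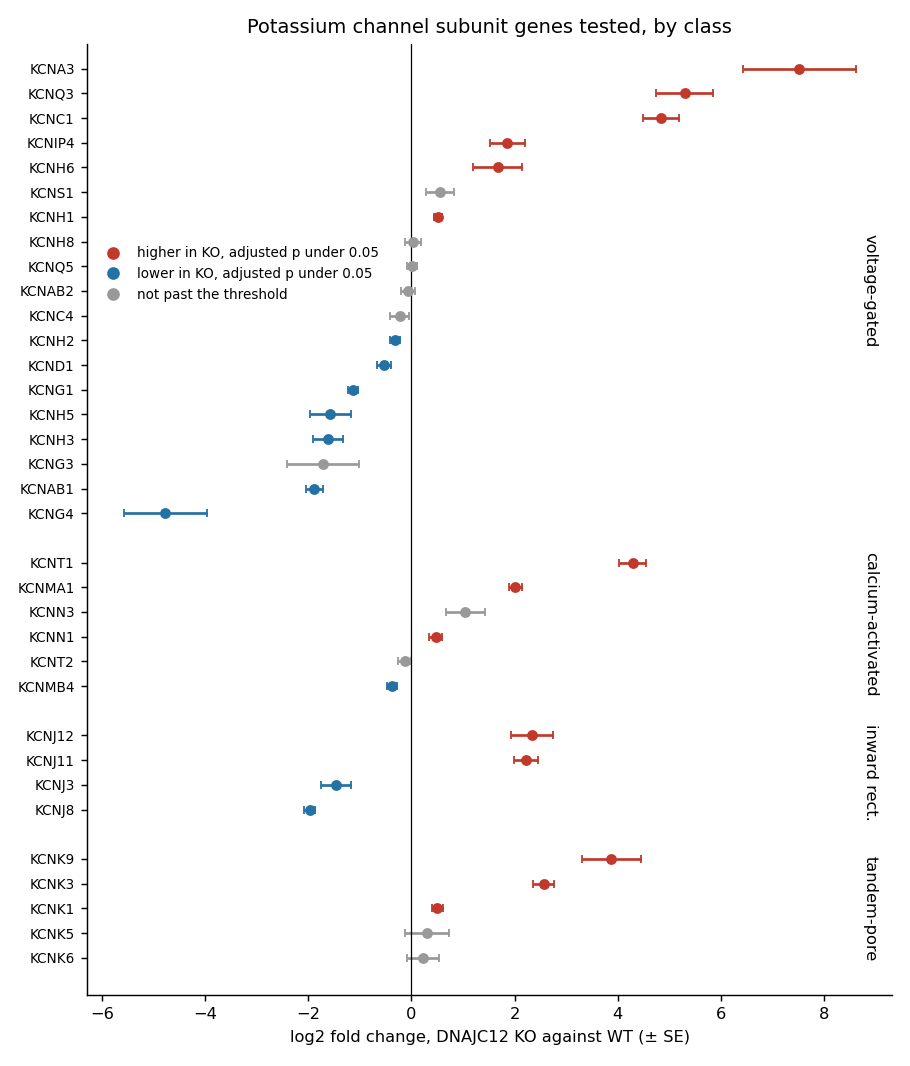
Log2 fold change of KO against WT for the 34 members tested, grouped by channel class, with SE as error bars (n = 3 per group). Voltage-gated members spread on both sides of 0, and the 3 tandem-pore members past the threshold lie to the right of it. The point of KCNA3 is a fitted value against 0 counts in WT and is no bound.

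By class, 6 of 19 voltage-gated members tested rose and 7 fell, where 14.5 percent of all genes were higher and 11.5 percent lower. Of 6 calcium-activated and sodium-activated members 3 rose and 1 fell. The 4 inward rectifiers tested were split, with 2 higher and 2 lower, and of 5 K2P members 3 rose and 0 fell. DESeq2 and limma-voom also gave 0 falls among the K2P genes. In the edgeR fit of all 6 libraries the log2 fold changes of these 5 were all above 0, while KCNK5 was at -0.0439 without WT replicate 2 and KCNK6 at -0.0678 with length-corrected counts. The class counts include the members that needed 1 group to pass the filter. These are KCNA3, KCNC1, KCNH6, KCNQ3, KCNG4 and KCNH5 among voltage-gated members, and KCNT1, KCNJ12 and KCNK9 in the other classes. The counts are therefore no support for a change of a class.

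Levels of different genes were compared per length, in TPM, transcript abundance scaled for length and library size, summed over the transcripts of a gene. This was done for the 34 of 40 members with at least 90 percent of their counted reads on GENCODE 29 transcripts. KCNH2, the hERG channel gene known for cardiac repolarisation and for expression in neuroblastoma, had the highest level in both genotypes, at 113 ± 8.66 TPM in KO and 137 ± 17.9 TPM in WT (SD, n = 3). Behind it the order differed. In KO the next genes were KCNK1 (15.7 to 18.1 TPM) and KCNG1 (15.6 to 18.3 TPM), whose ranges overlap, followed by KCNJ8 (10.4 to 12.9 TPM), KCNMA1 (8.55 to 11.0 TPM) and KCNH1 (7.62 to 8.80 TPM). KCNMA1 overlapped both KCNJ8 and KCNH1. In WT they were KCNJ8 (42.6 to 49.2 TPM), KCNG1 (37.3 to 39.2 TPM) and KCNAB1 (11.2 to 16.6 TPM), which do not overlap. KCNK1 (12.0 to 13.1 TPM) followed within the range of KCNAB1, and KCNMB4 (10.1 to 11.9 TPM) came next, with a range below that of KCNK1. By this measure KCNMA1 ranked 5 in KO and 11 in WT, and KCNAB1 ranked 11 in KO and 4 in WT.

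**Figure D2:**
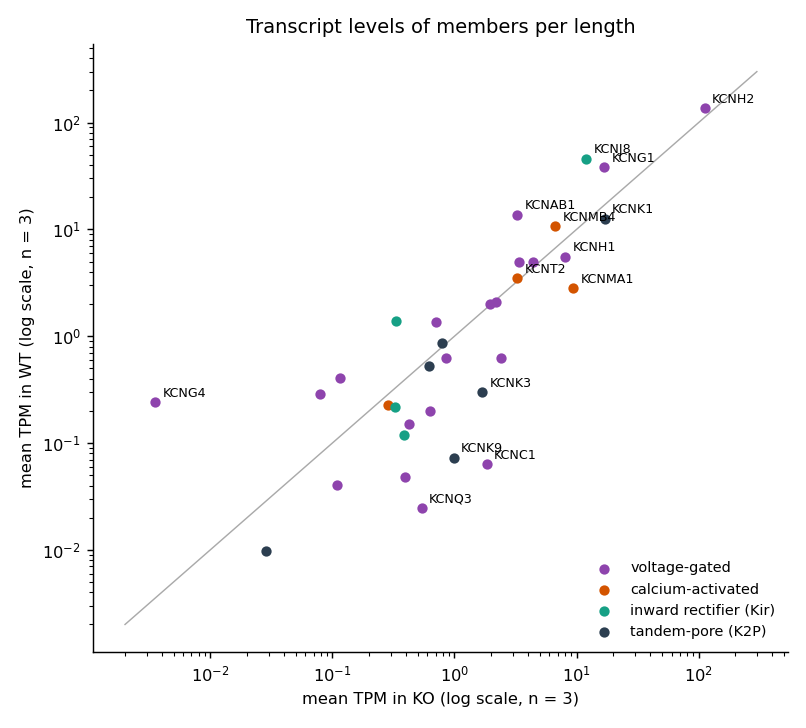
Mean TPM of members in KO (horizontal, log scale) and in WT (vertical, log scale), 1 point per gene and n = 3 per group, coloured by class, with the line of equal levels. KCNH2 lies highest in both, KCNJ8 and KCNG1 lie above the line, and KCNMA1, KCNK3, KCNC1 and KCNQ3 lie below it.

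Summed over the 6 pore-forming inward rectifier members, TPM was 13.1 to 17.5 in KO libraries and 43.8 to 53.5 in WT libraries. The 6 pore-forming calcium-activated and sodium-activated members summed to 16.04 to 18.6 TPM in KO and 7.39 to 12.0 TPM in WT, and the 8 K2P members to 20.3 to 21.99 TPM in KO and 13.7 to 15.0 TPM in WT. These 3 sums did not overlap between genotypes, with an exact two-sided permutation p of 0.1 each, the smallest that 3 against 3 libraries can give. The 21 pore-forming voltage-gated members summed to 131 to 147 TPM in KO and 141 to 175 TPM in WT, ranges that overlap (exact permutation p = 0.2). KCNH2 made up 81.2 to 83.6 percent of that sum in KO and 84.1 to 88.1 percent in WT. Single genes weighed heavily in the other 3 sums too. KCNJ8 had 10.4 to 12.9 TPM in KO and 42.6 to 49.2 TPM in WT. KCNK1 had 15.7 to 18.1 TPM in KO and 12.0 to 13.1 TPM in WT. KCNMA1 had 8.55 to 11.0 TPM in KO and 1.67 to 3.51 TPM in WT. The sums therefore do not show a change of a whole class, and KCNJ11 rose while the inward rectifier sum was lower. For KCNJ11, KCNN1 and KCNT1 the sums hold only the reads on GENCODE 29 transcripts, which were 89.5, 20.1 and 44.5 percent of their counts. KCNA3 adds 0 TPM to the voltage-gated sum, since 0 percent of its counts lie on those transcripts.

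The largest rises among voltage-gated pores were in KCNA3, KCNQ3 and KCNC1, which were close to silent in WT. Each needed its KO libraries to pass the filter on low counts. A gene close to silent in WT could be tested only if it was higher in KO. The place of these genes among the rises, their separation and their adjusted p-values are therefore no support. KCNC1, which encodes a Kv3 subunit that closes fast and lets neurons fire at high rates, had 9.17, 10.5 and 9.47 CPM in KO libraries, against 0.629, 0.203 and 0.153 CPM in WT libraries. Every KO library lay far above every WT library. The rise was 4.84 ± 0.34 (edgeR adjusted p = 2.58e-06), and 5.72 without WT replicate 1, the WT library with the most reads of the gene. The gene (ENSG00000129159) spans chr11:17734781-17783057 in GRCh38.p14. KCNQ3, which encodes a subunit of the M-current that damps repetitive firing, had 2.60, 3.32 and 2.66 CPM in KO libraries, against 0.0968, 0.101 and 0 CPM in WT libraries. Its rise was 5.30 ± 0.55 (adjusted p = 4.16e-05), and its WT level rests on 4 counts in all. The M-current partner KCNQ5 had 16.6 ± 0.776 CPM in KO and 16.5 ± 0.567 CPM in WT (SD, n = 3), a difference of 0.01 ± 0.10 (adjusted p = 0.963). KCNA3, a Shaker-type subunit gene also known from T lymphocytes, had 30, 28 and 11 counts in KO libraries and 0 in each WT library, which makes it at least 22.3-fold higher (adjusted p = 0.00112), where the floor for WT is 3 counts summed over its libraries. None of the counted KCNA3 reads lay on a transcript of GENCODE 29.

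**Figure D3:**
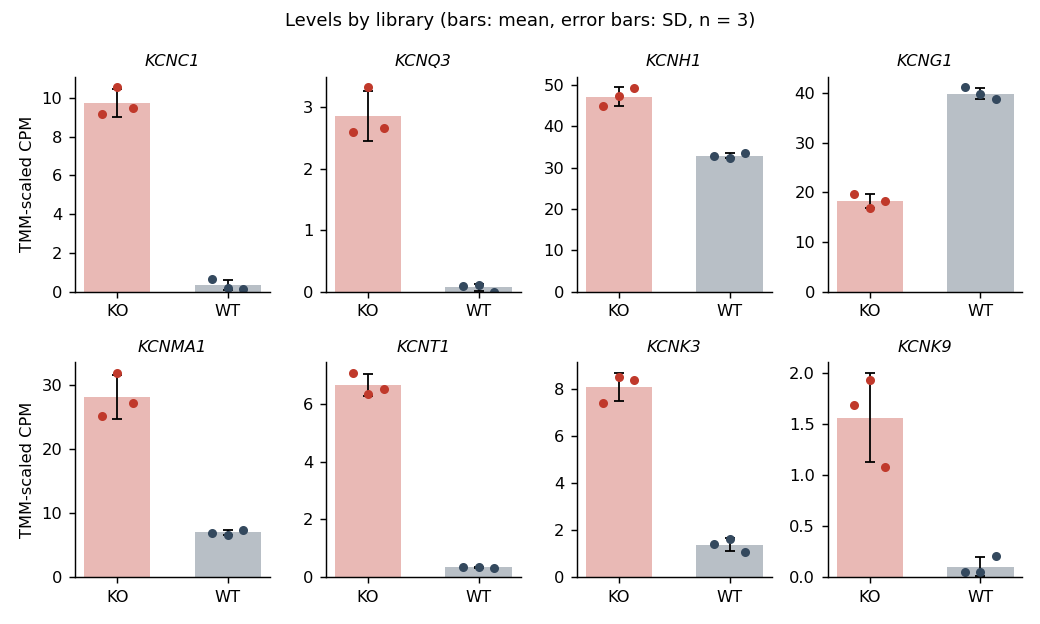
TMM-scaled CPM of 8 members in the 3 KO and 3 WT libraries (points), with the mean (bar) and SD. KCNC1, KCNQ3, KCNT1 and KCNK9 lie near 0 in WT and needed their KO libraries to pass the filter on low counts. KCNH1 is high in both genotypes, and KCNG1 is the gene of the 8 that is lower in KO.

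The ether-a-go-go family of voltage-gated channels, the KCNH genes, changed in both directions. KCNH5, KCNH6 and the non-member KCNH4 needed their higher group to pass the filter, so their adjusted p-values are no support. KCNH1, the EAG channel gene that is often raised in tumours, had 45.0, 47.3 and 49.4 CPM in KO libraries, against 32.7, 32.4 and 33.5 CPM in WT libraries, and rose by 0.52 ± 0.08 (adjusted p = 0.000704). KCNH6, an erg-type gene, had 1.48, 1.25 and 2.24 CPM in KO and 0.775, 0.558 and 0.205 CPM in WT (1.68 ± 0.47, adjusted p = 0.0245). The KCNH6 rise missed the threshold without KO replicate 3 (adjusted p = 0.121), WT replicate 2 (0.0786) or WT replicate 3 (0.0772), and with length-corrected counts (0.0694). KCNH3, an ELK-type gene of the forebrain, had 1.02, 1.49 and 1.07 CPM in KO libraries, against 3.15, 3.55 and 4.35 CPM in WT libraries (-1.62 ± 0.28, adjusted p = 0.00164). With length-corrected counts its change was -0.97 (adjusted p = 0.265). KCNH5, the other EAG gene, was at 0.289 to 0.420 CPM in KO and 0.869 to 1.22 CPM in WT (-1.57 ± 0.40, adjusted p = 0.0147). Its fall missed the threshold without KO replicate 2 (adjusted p = 0.0562), WT replicate 1 (0.0544) or WT replicate 2 (0.0655), and with length-corrected counts (0.0994). KCNH8, an ELK-type gene as well, stood at 7.62 ± 1.05 CPM in KO and 7.46 ± 0.630 CPM in WT (SD, n = 3), with overlapping libraries. KCNH4, the remaining ELK-type gene, is not among the 53 and is named after its values were seen. It had 1.63, 0.963 and 2.01 CPM in KO libraries, against 0.0968, 0.152 and 0.511 CPM in WT libraries, and rose by 2.58 ± 0.57 (adjusted p = 0.00696), or 3.56 without WT replicate 3.

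KCNH2 itself had 263, 289 and 259 CPM in KO libraries, against 293, 331 and 387 CPM in WT libraries. All KO values lay below all WT values, by a narrow margin, and the change was -0.32 ± 0.09 (adjusted p = 0.0313). It missed the threshold without KO replicate 1 (adjusted p = 0.0522), KO replicate 3 (0.127), WT replicate 2 (0.0773) or WT replicate 3 (0.102), on counts summed from the transcript files (0.0523) and with length-corrected counts (0.208). The gene makes a pair of channel proteins that share the pore and differ at the N-terminus, hERG1a with a long N-terminal domain that slows deactivation and hERG1b with a short one. Their first coding exons lie apart, and the first 60 coding bases are shown because they tell the transcripts apart, with the start codon in capitals.
hERG1a (ENST00000262186, chr7:150977854-150977913, minus strand): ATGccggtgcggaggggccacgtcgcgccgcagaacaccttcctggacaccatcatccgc
hERG1b (ENST00000330883, chr7:150955444-150955503, minus strand): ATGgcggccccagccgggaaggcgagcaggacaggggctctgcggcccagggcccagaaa
The hERG1a transcript had 23.7, 25.9 and 18.9 TPM in KO libraries, against 50.8, 53.7 and 67.4 TPM in WT libraries. Its highest KO value was below its lowest WT value, with a log2 difference of -1.33 (exact two-sided permutation p = 0.1, the smallest possible). The hERG1b transcript had 46.3, 53.5 and 49.2 TPM in KO libraries, against 37.9, 50.6 and 54.0 TPM in WT libraries, with overlapping ranges and a log2 difference of 0.08 (exact permutation p = 0.9). A retained-intron transcript of the gene, ENST00000532957, was at 29.4 to 32.9 TPM in KO and 28.4 to 30.4 TPM in WT (exact permutation p = 0.5). Another retained-intron transcript, ENST00000461280, had 4.51, 9.84 and 3.21 TPM in KO libraries and 0 TPM in each WT library. The ratio of hERG1a to hERG1b was 0.511, 0.484 and 0.383 in KO libraries, against 1.34, 1.06 and 1.25 in WT libraries, so that hERG1b was the more abundant form in every KO library and hERG1a in every WT library (exact permutation p = 0.1). These are Salmon's estimates for transcripts that share most of their sequence, and their uncertainty within a library was not tested. The gene was picked for this after the transcript values had been seen.

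**Figure D4:**
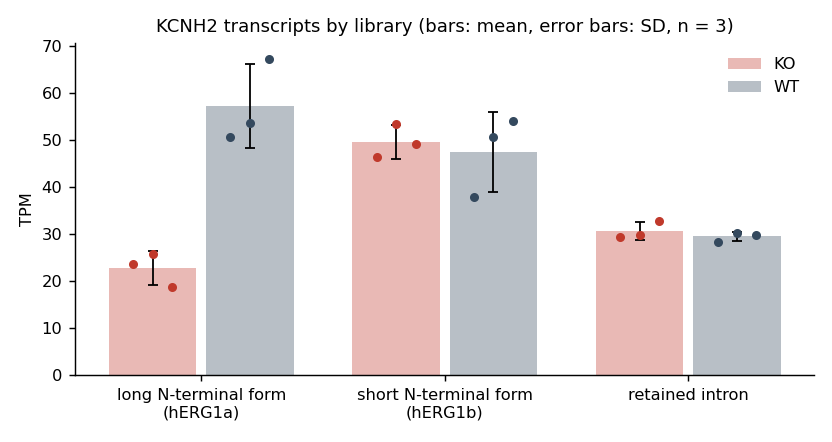
TPM of 3 KCNH2 transcripts in KO and WT libraries (points), with the mean (bar) and SD. For hERG1a the KO points lie at 18.9 to 25.9 and the WT points at 50.8 to 67.4, while the points of hERG1b and of the retained-intron transcript ENST00000532957 lie side by side.

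Members of the remaining voltage-gated pore families moved less or were near the floor. KCND1, an A-type channel gene, had 11.7, 9.87 and 9.65 CPM in KO libraries, against 16.03, 15.6 and 13.4 CPM in WT libraries. The groups did not overlap and the change was -0.53 ± 0.13 (adjusted p = 0.0107), which missed the threshold without KO replicate 3 (adjusted p = 0.0591) and with length-corrected counts (0.182). KCNC4, a relative of KCNC1, had 8.78 ± 1.78 CPM in KO and 10.2 ± 1.83 CPM in WT (SD, n = 3; -0.22 ± 0.18, adjusted p = 0.428). KCNH7, the remaining erg-type gene, had 22 counts in the 3 KO libraries together and 2 in the 3 WT libraries, a ratio of 10.7 with an exact 95 percent counting interval of 2.62 to 93.5, and was not tested.

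Modifier subunits form no channels alone and change the gating of channels formed by other subunits. KCNG1 had 19.7, 16.8 and 18.3 CPM in KO libraries, against 41.2, 39.8 and 38.9 CPM in WT libraries, a fall with well separated groups (-1.13 ± 0.09, adjusted p = 8.80e-06). KCNG4 had 0, 0 and 1 count in KO libraries and 12, 10 and 14 counts in WT libraries. Its KO level was 0.0269 of the WT level, with an exact 95 percent counting interval of 0.000663 to 0.160, and it fell (adjusted p = 0.0013). The fitted log2 change of KCNG4, -4.77, was -6.61 without KO replicate 3. KCNG4 passed the filter through WT only, so its adjusted p-value is no support. KCNG3 and KCNS1 did not pass: KCNG3 was at 0.272 ± 0.274 CPM in KO and 0.911 ± 0.499 CPM in WT, and KCNS1 at 3.02 ± 0.523 CPM in KO and 2.05 ± 0.323 CPM in WT (SD, n = 3; adjusted p = 0.104 and 0.156). KCNG3 passed without KO replicate 2 (adjusted p = 0.0240). KCNF1 and KCNS3 were below the filter. KCNF1 had 36 counts in KO and 4 in WT, and KCNS3 had 29 counts in KO and 15 in WT.

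Auxiliary subunits of voltage-gated channels also split. KCNAB1, a beta subunit that speeds the inactivation of Shaker-type channels, had 6.57, 10.3 and 9.51 CPM in KO libraries, against 36.6, 33.0 and 28.2 CPM in WT libraries. It fell in every KO library (-1.89 ± 0.16, adjusted p = 1.21e-05). Its relative KCNAB2 was at 14.4 ± 1.998 CPM in KO and 15.0 ± 1.75 CPM in WT (SD, n = 3; adjusted p = 0.778). KCNIP4, a calcium-binding partner of A-type channels, had 3.06, 3.61 and 2.33 CPM in KO libraries, against 0.581, 0.863 and 1.02 CPM in WT libraries, and rose (1.86 ± 0.33, adjusted p = 0.00186). KCNIP3, of the same family, had 36 counts in KO and 12 in WT and was not tested.

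Among calcium-activated and sodium-activated channels, KCNMA1 and KCNT1 had the largest changes, both higher. KCNMA1 encodes the pore of the BK channel, which opens to calcium and voltage together. It had 25.2, 31.9 and 27.2 CPM in KO libraries, against 6.92, 6.55 and 7.36 CPM in WT libraries, about 4.05-fold higher (2.02 ± 0.12, adjusted p = 9.33e-07). KCNMB4, the neuronal beta subunit of that channel, had 22.9, 18.3 and 20.6 CPM in KO libraries, against 26.8, 27.1 and 26.2 CPM in WT libraries. The groups did not overlap and the change was -0.37 ± 0.10 (adjusted p = 0.0229), which missed the threshold without KO replicate 3 (adjusted p = 0.0867), WT replicate 1 (0.0684), WT replicate 2 (0.0757) or WT replicate 3 (0.0503). KCNT1 had 7.08, 6.36 and 6.53 CPM in KO libraries, against 0.339, 0.355 and 0.307 CPM in WT libraries (4.29 ± 0.26, adjusted p = 7.98e-07). KCNT2, the other sodium-activated channel gene, had 9.73, 12.0 and 11.4 CPM in KO libraries, against 12.0, 12.3 and 12.0 CPM in WT libraries, with overlapping groups (-0.13 ± 0.12, adjusted p = 0.496). KCNT1, at 7, 7 and 6 counts in WT libraries, passed the filter through KO only. Its adjusted p-value and its separation from WT are therefore no support. KCNT2 did not pass the test, and the difference between the changes of KCNT1 and KCNT2 was not tested. KCNN1, a small-conductance SK channel gene, had 24.9, 19.4 and 18.5 CPM in KO libraries, against 16.5, 13.96 and 14.9 CPM in WT libraries (0.47 ± 0.13, adjusted p = 0.0252). That rise missed the threshold without KO replicate 1 (adjusted p = 0.0545), WT replicate 2 (0.110) or WT replicate 3 (0.0855). On the 20.1 percent of its reads that lie on GENCODE 29 transcripts the change was -0.27 (adjusted p = 0.811), and 0.12 with length correction (0.913). KCNN3, another SK gene, had 1.22, 2.46 and 2.33 CPM in KO libraries and 0.823, 1.22 and 0.869 CPM in WT libraries (1.05 ± 0.37, adjusted p = 0.065). It passed without KO replicate 1 (adjusted p = 0.0226).

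Inward rectifier genes moved in opposite directions within the ATP-sensitive (KATP) channel. This channel closes when ATP is high and is built from a Kir pore, encoded by KCNJ8 or KCNJ11, and a sulfonylurea receptor, encoded by ABCC9 or ABCC8. KCNJ8 had 22.2, 17.1 and 21.4 CPM in KO libraries, against 87.3, 79.2 and 72.0 CPM in WT libraries, 3.93-fold lower (-1.97 ± 0.12, adjusted p = 6.39e-07). KCNJ11 had 8.25, 5.59 and 6.34 CPM in KO libraries, against 1.60, 1.47 and 1.23 CPM in WT libraries, 4.67-fold higher (2.22 ± 0.24, adjusted p = 5.09e-05). The ratio of KCNJ8 to KCNJ11 counts was 2.69, 3.06 and 3.38 in KO libraries and 54.6, 53.8 and 58.7 in WT libraries. As counts do not correct for length, this ratio compares the libraries and not the levels of the pair. The receptor genes, which are not among the 53, moved the same way as the pore gene that each adjoins on its chromosome. ABCC9 had 2.55, 3.37 and 2.85 CPM in KO libraries, against 12.7, 13.6 and 9.56 CPM in WT libraries (-2.03 ± 0.19, adjusted p = 1.87e-05). On counts from the transcript files the change of ABCC9 was -2.75 summed and -3.16 length-corrected. ABCC8 had 7.23, 5.06 and 5.32 CPM in KO libraries, against 0.678, 0.406 and 0.511 CPM in WT libraries (3.44 ± 0.30, adjusted p = 1.11e-05). With length-corrected counts ABCC8 missed the threshold (3.24, adjusted p = 0.0533). ABCC8, at 14, 8 and 10 counts in WT libraries, needed its KO libraries to pass the filter, so its adjusted p-value is no support. The ratio of ABCC9 to ABCC8 counts was 0.352, 0.667 and 0.535 in KO libraries and 18.7, 33.5 and 18.7 in WT libraries, with no overlap. This ratio, too, is not corrected for length and does not say which receptor gene had the higher level. In GRCh38.p14 KCNJ8 and ABCC9 are neighbours on chromosome 12, 22.7 kb apart, and KCNJ11 and ABCC8 are neighbours on chromosome 11, 3.15 kb apart, with KCNC1 345 kb from KCNJ11.

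**Figure D5:**
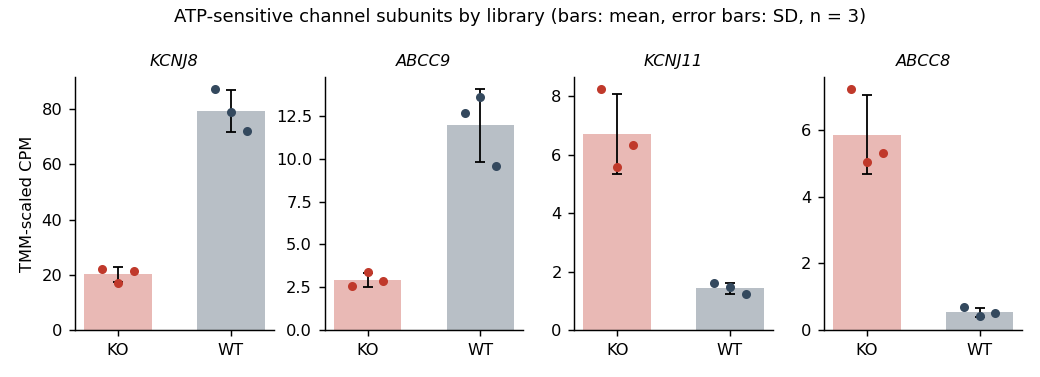
TMM-scaled CPM of the KATP pore genes KCNJ8 and KCNJ11 and receptor genes ABCC9 and ABCC8 in KO and WT libraries (points), with the mean (bar) and SD. KCNJ8 and ABCC9 are lower in all KO libraries and KCNJ11 and ABCC8 are higher.

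The other inward rectifiers were low. KCNJ3, a pore gene of the G-protein-gated channel, had 1.17, 1.16 and 0.793 CPM in KO libraries, against 2.61, 3.15 and 2.81 CPM in WT libraries, and fell (-1.46 ± 0.29, adjusted p = 0.00401). KCNJ12, a strong rectifier gene, had 1.99, 1.59 and 1.07 CPM in KO libraries, against 0.290, 0.305 and 0.307 CPM in WT libraries, and rose (2.34 ± 0.41, adjusted p = 0.00178). KCNJ12 passed the filter through KO only, so its adjusted p-value is no support. It has a near-identical copy, KCNJ18, which makes its read assignment uncertain. KCNJ4, of the same strong rectifier group, had 28 counts in KO and 17 in WT, 13 of them in 1 WT library, and was not tested.

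K2P channels carry the background leak. KCNK3, an acid-sensitive TASK channel gene, had 7.43, 8.52 and 8.40 CPM in KO libraries, against 1.40, 1.62 and 1.07 CPM in WT libraries, 5.91-fold higher (2.56 ± 0.21, adjusted p = 7.78e-06). Its close relative KCNK9, also a TASK gene, had 1.68, 1.93 and 1.07 CPM in KO libraries, against 0.0484, 0.0508 and 0.205 CPM in WT libraries (3.88 ± 0.57, adjusted p = 0.000522). The WT level of KCNK9 rests on 6 counts, and without WT replicate 3 the rise was 4.81. KCNK9 passed the filter through KO only, so its adjusted p-value and its separation from WT are no support. KCNK1, the K2P member with the highest TPM, had 21.2, 24.2 and 23.4 CPM in KO libraries, against 15.2, 16.1 and 17.3 CPM in WT libraries, and rose by 0.50 ± 0.10 (adjusted p = 0.00459). All 3 genes were higher in 3 of 3 KO libraries than in any WT library. KCNK5 had 2.04, 1.30 and 2.10 CPM in KO libraries and 2.18, 0.660 and 1.53 CPM in WT libraries (adjusted p = 0.655). KCNK6 had 4.12, 2.41 and 4.06 CPM in KO libraries and 2.47, 4.21 and 2.40 CPM in WT libraries (adjusted p = 0.658). The libraries of both genes overlapped. KCNK12 had 19 counts in KO and 6 in WT and was not tested.

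Of 51 other potassium channel genes and known partners, 27 were in the table and 22 were tested, of which 11 rose, 3 fell and 8 did not pass, where 14.5 percent of all genes were higher and 11.5 percent lower. Of the 11 rises, 4 had fewer than 10 counts in every WT library and passed the filter through KO only, namely KCNJ9, KCNIP1, DPP6 and DPP10. KCNH4, with 2, 3 and 10 counts in WT libraries, and ABCC8, with 14, 8 and 10, also needed their KO libraries to pass. The adjusted p-values of all these genes, and the count of rises that includes them, are no support. KCNJ9, a G-protein-gated relative of KCNJ3, had 2.80, 3.13 and 3.26 CPM in KO libraries, against 0.0484, 0.152 and 0 CPM in WT libraries (5.40 ± 0.56, adjusted p = 4.28e-05). The rise of KCNJ9 was 6.63 without WT replicate 2. KCNJ3 was lower in KO, and the difference between the changes of KCNJ9 and KCNJ3 was not tested. KCNK13, a K2P gene known from microglia, had 8.25, 9.15 and 8.49 CPM in KO libraries, against 1.79, 2.49 and 3.37 CPM in WT libraries (1.76 ± 0.22, adjusted p = 0.00018).

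The 13 absent members were KCNA1, KCNA2, KCNA5, KCNA6, KCNB2, KCNC2, KCND2, KCND3, KCNE4, KCNJ6, KCNK2, KCNK10 and KCNN2. The table lists only genes with at least 10 counts over the 6 libraries, so an absent gene was below that. On GENCODE 29 transcripts, which also miss all reads of KCNA3, 8 of the 13 had no read in any library. The other 5 had at most 6 reads over all libraries, with KCNK2 and KCNK10 at 6 and KCNE4 at 1. Among them are A-type pores that KCNIP4 is known to bind (KCND2 and KCND3) and 3 Shaker-type pores that KCNAB1 is known to bind (KCNA1, KCNA2 and KCNA5). Of the same families, the A-type gene KCND1 was detected in both genotypes and the Shaker-type gene KCNA3 in KO alone.

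Chromosome position was examined because earlier results of these data held stretches of chromosome with shifted levels. For each of the 40 members in the table, the median change of the 40 nearest expressed genes on its chromosome lay between -0.13 (around KCNN3) and 0.11 (around KCNC1) on the log2 scale. The farthest of these neighbours lay up to 14.6 Mb from the member (for KCNIP4), and the part of chromosome position in the members' changes was not tested. Of the other potassium channel genes, KCNIP1 lies on chromosome 5 among neighbours with a median of 0.73. KCNIP1 had 41 counts in KO and 0 in WT and was at least 13.2-fold higher (adjusted p = 0.000959), and is named after its values were seen.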

How the data were processed

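Total RNA depleted of ribosomal RNA was sequenced from stranded libraries, per the labels' protocols. Salmon 1.10.0, cutadapt 3.5, DESeq2 1.42.1 and the build GRCh38.p14 are listed in the submitters' processing notes, without roles; annotation release and strand setting are not given in the sources used here. The deposited gene table holds estimated counts rounded to whole numbers and not normalized. Per the file headers, the transcript files hold estimated counts, TPM values and effective lengths. Salmon divides reads among similar transcripts, so near-identical genes and overlapping transcripts are uncertain.

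After removal of 403 repeated rows, 20668 genes remained. filterByExpr kept 16403. After TMM normalization, edgeR 4.0.16 (R 4.3.3) fitted quasi-likelihood models and gave two-sided F-tests, and SE was taken as |log2 fold change| divided by the root of F. Fits were tested on simulated data. Transcripts were assigned to genes through GENCODE 29, which holds 201667 of 251955 transcripts and 94.2 to 94.6 percent of reads. Ratios carry exact binomial intervals at 95 percent, which, like the floor of 3 counts, cover counting error only. Other settings were DESeq2 1.42.0, limma-voom (limma 3.58.1), other scalings, filters, a replicate block, omitted libraries, a threshold of 0.01 and transcript-file counts.

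Members, lists and tests were chosen with earlier results of these data known. Values in every library are given for the 10 voltage-gated, 5 calcium-activated, 4 inward rectifier and 5 K2P members with the smallest adjusted p and the 3 of each class with the highest TPM, and for other subunits among the 6 with the smallest adjusted p, of which some are not reported here. KCNH6, KCNIP1 and the KCNH2 transcripts were added after their values were seen. Positions come from RefSeq genes of GRCh38.p14 and sequences from GENCODE 29 transcripts, whose versions can differ from those in the files.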

Additional observations from a re-analysis of the deposited data

How the results depend on the processing

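Of the 24 members past the threshold, 17 kept call and direction in every alternative that gave a value, the stricter threshold left aside. Of the 17, 13 had a value in all 15 settings. KCNG4, KCNJ12 and KCNK9 had none at a mean of at least 1 CPM, and KCNA3 had none there, without KO replicate 2 or on transcript-file counts. The others are KCND1, KCNH2, KCNH3, KCNH5, KCNH6, KCNMB4 and KCNN1, whose values stand in the report. With 1 library left out, 13 to 15 members rose and 7 to 10 fell, voltage-gated rises were 5 to 7 and falls 5 to 7, calcium-activated rises 2 to 3 and falls 0 to 1, all genes 1758 to 2622 higher and 1208 (without KO replicate 3) to 2150 lower. Length-corrected counts gave 6 members lower, 3 voltage-gated members lower and 1225 genes lower. At a threshold of 0.01 there were 6 members, 4 voltage-gated, 0 calcium-activated and 1062 genes lower. A mean of at least 1 CPM left 1 inward rectifier and 7 other subunits higher, because fewer genes were tested. On protein-coding transcripts alone the log2 ratio of summed TPM was -0.41 for voltage-gated pores (-0.21 over all transcripts) and -0.53 for all members (-0.40). Left-out libraries moved it between -0.29 and -0.14 for voltage-gated pores, 0.79 and 1.14 for calcium-activated pores, -1.68 and -1.47 for inward rectifiers, 0.53 and 0.60 for K2P and -0.43 and -0.38 for all members.

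Sign changes occurred in members that did not pass, and in KCNN1. KCNAB2 ran from -0.161 to 0.0413 with 1 library left out, and was 0.79 on summed and 0.0257 on length-corrected transcript counts. KCNC4 was 0.13, KCNK6 -0.0678 and KCNQ5 -0.0884 with length-corrected counts, and KCNN1 -0.27 on summed ones. With library sizes KCNH8 was -0.0271 and KCNQ5 -0.0470. KCNH8 ran from -0.0412 to 0.14, KCNQ5 from -0.0266 to 0.0416 and KCNK5 from -0.0439 to 0.72 with 1 library left out. The cause was not tested.

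Same-numbered KO and WT libraries had deviations correlated at 0.141, 0.0233 and -0.0662. Differently numbered ones ran from -0.171 to 0.142. With 3 libraries per group these values show no clear pairing by number and cannot exclude one. With the replicate block 14 members rose and 11 fell, with KCNG3 in addition (adjusted p = 0.0418). Over all genes it gave 2541 higher and 2024 lower. Members with few counts are limited by depth: 6 were below the filter.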

Other observations

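Among 15 members with at least 100 reads per genotype, and at least 90 percent of them on GENCODE 29 transcripts, 3 had a transcript whose share of the gene's TPM differed by at least 10 percentage points with no overlap between genotypes. Beside KCNH2 these were KCNMA1 and KCNMB4, the pore and beta subunit of the BK channel. For KCNMA1 the short transcript ENST00000481070 held 34.5, 23.5 and 17.3 percent in KO libraries and 0, 0 and 2.84 percent in WT libraries. The transcript ENST00000639716 held 0, 0 and 6.26 percent in KO libraries and 21.7, 29.8 and 28.9 percent in WT libraries. At most 55.0 estimated reads in a library stand behind either. For KCNMB4 the full-length coding transcript ENST00000258111 held 90.01, 90.4 and 91.2 percent in KO libraries and 69.2, 82.4 and 76.8 percent in WT libraries. Its other transcript, a nonsense-mediated decay form, had 2.5 to 3.0 estimated reads in KO libraries and 6.7 to 14.7 in WT libraries. Each of these differences has an exact permutation p of 0.1, the smallest possible, and the transcripts were picked after their values were seen.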
